A study of Mus musculus with 10 samples.

Results

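The genes described here code for proteins of the mitochondrial ribosome and for the machinery that imports proteins into mitochondria. They were chosen by gene symbol, by a rule that uses no measured value: every named probe whose symbol starts with Mrpl, Mrps, Timm or Tomm followed by a digit, with the probe of highest mean intensity over all arrays standing for a gene. This gave 48 genes out of 7409 named genes, on 54 out of 24048 probes. Of these, 19 were assigned by symbol alone to the large ribosomal subunit (Mrpl), 16 to the small subunit (Mrps) and 13 to import (Timm and Tomm). Total RNA of the livers of 5 female Gyk heterozygous mice and 5 female Gyk wildtype mice (C57Bl/6J) was measured at 23 weeks of age, with 1 Illumina bead array per mouse. All 10 mice had eaten chow with 4% fat until 11 weeks of age and chow with 6% fat afterwards. Glycerol kinase, the product of Gyk, is encoded on the X chromosome. Because 1 X chromosome is silenced in each female cell, a heterozygous liver is a mosaic of cells using either copy. The nature of the altered allele, and whether the wildtype mice were littermates, are not stated in the sources at hand. Sample titles begin with a number, which is 1 or 2 in the heterozygous mice, 1 in wildtype replicate 1, 2 in wildtype replicate 2 and 7 in wildtype replicates 3, 4 and 5. What the number stands for is not given.

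Mitochondria keep a small genome of their own and translate it on a dedicated ribosome, whose RNA is made inside the organelle while all of its proteins are encoded in the nucleus. These proteins, like nearly all others of the organelle, are made in the cytosol and brought in by the TOM complex (translocase of the outer membrane) and the TIM complexes (translocases of the inner membrane). Hepatocytes are rich in mitochondria, which carry out fatty acid oxidation, part of the urea cycle and respiration in this tissue.

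The promoters of the genes on which the results turn are shown first, to set the sequence beside the measurements. They come from RefSeq (GRCm38.p6) and cover 250 bases before to 50 bases after the start of the gene, on the strand of the gene. Capitals mark the letters GCATGCGC of the nuclear respiratory factor NRF1, CCGGAAG of ETS factors such as GABP, and AAGATGGC of YY1, each searched on both strands. These factors are known regulators of nuclear genes for mitochondrial proteins. A match is a description of the letters and not a binding site. Mrpl33 (chr5:31613701-31614000, plus strand) and Mrpl49 (chr19:6057706-6058005, minus strand) are large subunit genes whose transcripts were lower in all heterozygous livers. Mrps12 (chr7:28741772-28742071, minus strand) and Mrps23 (chr11:88204138-88204437, plus strand) are the small subunit genes with the highest log2 changes of the transcript, and Tomm22 (chr15:79670618-79670917, plus strand) is the import gene with the widest spread between mice.
Mrpl33: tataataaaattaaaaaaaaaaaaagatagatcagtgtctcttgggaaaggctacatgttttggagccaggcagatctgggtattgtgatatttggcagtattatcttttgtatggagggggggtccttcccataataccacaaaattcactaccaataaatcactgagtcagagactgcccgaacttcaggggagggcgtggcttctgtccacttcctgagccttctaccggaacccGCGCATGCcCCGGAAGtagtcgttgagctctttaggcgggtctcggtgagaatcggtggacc
Mrpl49: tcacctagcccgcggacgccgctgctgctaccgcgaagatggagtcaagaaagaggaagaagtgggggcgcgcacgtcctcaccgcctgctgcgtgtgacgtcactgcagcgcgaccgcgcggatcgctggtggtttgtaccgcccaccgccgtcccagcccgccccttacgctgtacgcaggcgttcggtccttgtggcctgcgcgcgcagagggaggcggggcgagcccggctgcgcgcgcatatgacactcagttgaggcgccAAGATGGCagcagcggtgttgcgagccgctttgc
Mrps12: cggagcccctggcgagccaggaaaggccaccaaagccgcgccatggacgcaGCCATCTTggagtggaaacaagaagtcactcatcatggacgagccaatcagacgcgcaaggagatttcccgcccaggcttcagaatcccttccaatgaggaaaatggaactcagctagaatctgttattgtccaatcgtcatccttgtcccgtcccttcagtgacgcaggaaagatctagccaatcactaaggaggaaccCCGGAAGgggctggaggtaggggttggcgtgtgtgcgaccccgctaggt
Mrps23: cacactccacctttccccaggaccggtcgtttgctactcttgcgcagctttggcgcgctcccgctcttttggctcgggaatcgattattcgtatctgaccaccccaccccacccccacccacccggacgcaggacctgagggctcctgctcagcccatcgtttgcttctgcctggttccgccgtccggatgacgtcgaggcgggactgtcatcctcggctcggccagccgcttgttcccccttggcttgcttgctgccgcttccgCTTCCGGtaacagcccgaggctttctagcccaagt
Tomm22: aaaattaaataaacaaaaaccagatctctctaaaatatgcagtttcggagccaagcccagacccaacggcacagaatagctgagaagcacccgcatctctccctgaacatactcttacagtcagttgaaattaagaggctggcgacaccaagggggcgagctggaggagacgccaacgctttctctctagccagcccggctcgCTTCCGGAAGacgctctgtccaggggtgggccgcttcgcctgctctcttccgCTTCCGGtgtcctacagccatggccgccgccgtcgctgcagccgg
In Mrpl33 the ETS letters begin 3 bases before the start and the NRF1 letters 12 bases before it. In Tomm22 the ETS letters occur 3 times, and the 2 matches before the start overlap each other. In Mrpl49, of the 3 sets of letters, those of YY1 alone occur, 16 bases into the gene.

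The promoter table held 44 of the 48 genes, and Mrpl19, Mrpl4, Timm21 and Tomm7 are not in it. Of the 44, 20 (45.5%) had the ETS letters, 7 (15.9%) the YY1 letters and 5 (11.4%) the NRF1 letters, and 26 (59.1%) had at least 1 of the 3. Over all 27025 genes of the table, with windows of the same length, the shares were 9.9% for ETS, 3.2% for YY1, 3.0% for NRF1 and 14.9% for at least 1 of them. Among 2970 other named genes detected in these livers the shares were 20.4%, 5.7%, 6.3% and 28.9%. The 44 genes with a promoter entry were not filtered in this way. They include Mrpl32, Mrps36, Timm23 and Timm29, which did not pass the detection filter used for the other genes. ETS letters stood in 6 of 17 large subunit, 8 of 16 small subunit and 6 of 11 import promoters. NRF1 letters stood in 4, 1 and 0 of them, and YY1 letters in 4, 3 and 0.

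The deposited values were linear bead intensities from which a background had been subtracted. Gyk had intensities of 400.1, 234.7, 271.8, 259 and 432.9 in heterozygous replicates 1 to 5, against 914.2, 437.1, 579.7, 416.3 and 446 in wildtype replicates 1 to 5. In these deposited intensities the groups overlapped, since heterozygous replicate 5 (432.9) lay above wildtype replicate 4 (416.3). After normalization all heterozygous values were lower than all wildtype values, with a log2 change of -0.65 (SE 0.19). The two-sided exact permutation p of the normalized values was 0.00794, the smallest that 5 against 5 mice allow. In limma's moderated test over all kept probes the adjusted p of Gyk was 0.331, so Gyk was not called. A second Gyk probe was detected on 0 arrays. Median intensities ran from 14 to 24 over the arrays, and 9991 to 10876 probes were detected on an array. The arrays of heterozygous replicate 1 and wildtype replicate 1 stood apart: the correlation across probes was 0.991 between this pair, and 0.934 to 0.967 between either of the pair and any other array. In bulk liver, fewer cells of a type and less RNA per cell cannot be told apart. Of the hepatocyte markers only Apoa1 had a named probe, at 38189 to 50844 in heterozygous and 48949.7 to 55556 in wildtype liver. After normalization its log2 change was -0.006. The markers Krt19 of bile ducts and Prss1 of pancreas were not detected.

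The large subunit, the small subunit and import showed no common direction in heterozygous liver over all 10 mice: 3 large subunit genes were lower in every mouse, and most others lay within 0.2 of 0 on the log2 scale. A probe was kept for the tests if it stood above the noise on at least 5 of 10 arrays, whatever the group, which held for 44 of the 48 genes. Of these, 22 had a negative and 22 a positive log2 change (heterozygous minus wildtype), with a median of -0.003. Over all 10238 kept probes the log2 change was below 0 for 53.5%, with a median of -0.01. The large subunit had 12 genes below and 6 above 0 (median -0.04), the small subunit 6 below and 9 above (median 0.04), and import 4 below and 7 above (median 0.08). The small subunit and import turned to the other side once the title number was taken into account. With the title number as a block, 28 of the 44 genes were below 0, and the medians were -0.07 in the large subunit, -0.03 in the small subunit (9 below and 6 above) and -0.04 in import (7 below and 4 above), against 0.03 over all kept probes. Within the title numbers 1 and 2 alone, 28 of the 44 genes were below 0. The medians were then -0.06, -0.02 (10 below and 5 above) and -0.03 (7 below and 4 above), against 0.02 over all kept probes. No heterozygous mouse has title number 7, so both fits rest on the same wildtype mice, replicates 1 and 2. They are nearly the same comparison, and wildtype replicate 1 is an array that stood apart.

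No gene of the 44 was called by limma's moderated test at an adjusted p under 0.05, and the share called over all kept probes was 0.0%. At an unadjusted p under 0.05 there were 10 of the 44 genes, or 22.7%, against 1223 (11.9%) of all kept probes. They were 6 of 18 large subunit genes (4 lower and 2 higher), 3 of 15 small subunit genes (1 lower and 2 higher) and 1 of 11 import genes (lower), where 4.69% of all kept probes were lower and 7.26% higher at that p. The groups did not overlap for 3 of the 44 genes (6.82%), all of the large subunit and all lower in heterozygous liver. Over all kept probes 0.801% were lower without overlap and 0.977% higher, together 1.78%. The confidence interval of the log2 change included 0 for the remaining 34 genes, and its width differed widely between them, as the plot of log2 changes shows.

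**Figure D1:**
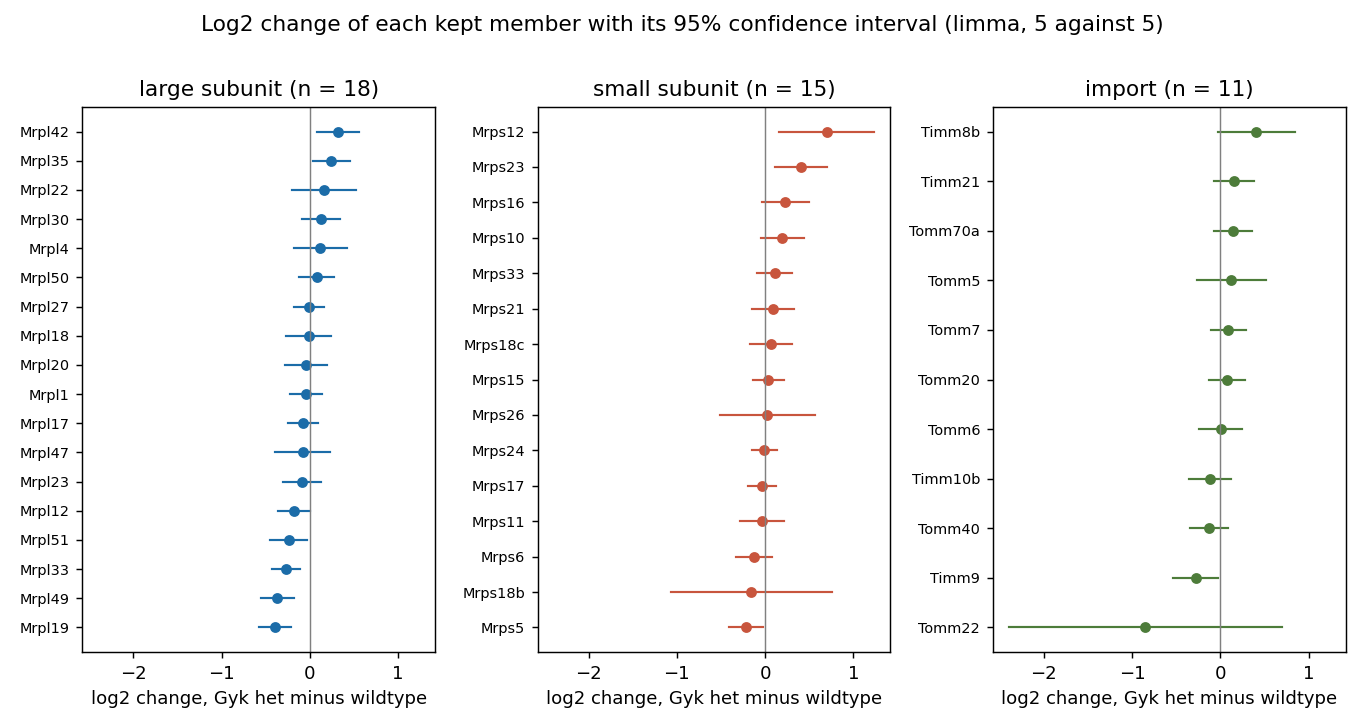
Log2 change (heterozygous minus wildtype, x axis) of the 44 kept genes, 1 row per gene in 3 panels by class, with points for the estimate and lines for its 95% confidence interval from limma, 5 against 5 mice. Mrpl19 (-0.39) and Mrpl49 (-0.37) lie lowest in the large subunit, Mrps12 (0.70) highest in the small subunit, and the interval of Tomm22 is the widest.

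In the large subunit Mrpl19, Mrpl49 and Mrpl33 were lower in every heterozygous liver than in any wildtype liver. Mrpl19 and Mrpl33 have counterparts in bacterial ribosomes, while Mrpl49 is a protein that bacterial ribosomes lack. Mrpl19 had intensities of 356.9, 341.8, 383.6, 378.9 and 349 in heterozygous replicates 1 to 5, against 449.8, 506.5, 466.2, 551.9 and 531.4 in wildtype replicates 1 to 5. Its log2 change was -0.39 (SE 0.08), which is a level of 76.1% relative to wildtype (95% confidence interval 67.1% to 86.3%) on the scale with 95.2 added to each intensity.

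Mrpl49 had intensities of 1474, 1402, 1595, 1518 and 1554 in heterozygous liver, against 2069, 1917, 1786, 2447 and 1964 in wildtype liver. The heterozygous mice lay close together and wildtype replicate 4 lay well above its group. The log2 change was -0.37 (SE 0.08), or 77.5% of the wildtype level (95% confidence interval 68.2% to 88.1%). Mrpl33 had 2384, 2506, 2452, 2447 and 2425 in heterozygous liver, against 2895, 3119, 2804, 3075 and 3338 in wildtype liver, a log2 change of -0.27 (SE 0.07). Its heterozygous SD was 44.5 and its wildtype SD 208 (n = 5 each). In these deposited intensities the gap between the groups exceeded the whole spread of the heterozygous mice. On the normalized log2 scale the gap was narrower than that spread. The heterozygous values there ran from 11.27 to 11.41, and the lowest wildtype value was 11.45. The limma adjusted p of all 3 genes was 0.331, and over 23 alternatives it lay between 0.0246 and 0.999.

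Over 23 alternatives the log2 change ran from -0.45 to -0.29 for Mrpl19, from -0.40 to -0.30 for Mrpl49 and from -0.31 to -0.20 for Mrpl33. These 3 genes are singled out because their groups do not overlap. Leaving out mice, or changing the filter or variance model, could therefore hardly turn the sign. That the sign stayed negative is thus no separate support. Within the title numbers 1 and 2, where the heterozygous mice are set against wildtype replicates 1 and 2 alone, the values were -0.30, -0.30 and -0.21. Their groups did not overlap under any of 6 scalings tried. The scalings that end in quantile normalization keep the ranks within each array, so their outcome was fixed once these genes were chosen. It could have differed only under median scaling, cyclic loess and the intensities as deposited. Over all kept probes the share without overlap was 1.9% after median scaling and 1.85% after cyclic loess, and 2.0% for the intensities as deposited.

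Other large subunit genes went either way. Mrpl51, absent from bacterial ribosomes, had 4391, 4354, 4853, 4392 and 4568 in heterozygous liver, against 5067, 4917, 5357, 6439 and 6035 in wildtype liver, a log2 change of -0.24 (SE 0.09, limma adjusted p 0.362). Its groups overlapped after normalization and did not overlap in the deposited intensities, and within the title numbers 1 and 2 its log2 change was -0.03. Mrpl42, likewise a mitochondrial addition to the ribosome, had 1509, 1655, 1576, 1451 and 1700.1 in heterozygous liver, against 1686, 1417, 1201, 1077 and 1119 in wildtype liver. Its log2 change was 0.32 (SE 0.11, limma adjusted p 0.334), and 0.10 within the title numbers 1 and 2; the 3 low wildtype values are those of title number 7. Mrpl35, which has a bacterial counterpart, was dim, with 116 to 178 in heterozygous and 82.7 to 116 in wildtype liver and a log2 change of 0.24 (SE 0.09).

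Of the remaining large subunit genes, Mrpl12, the stalk protein that contacts translation factors, had a log2 change of -0.18 (SE 0.08, limma adjusted p 0.418). Its deposited intensities were 4432 to 5168 in heterozygous and 5490 to 6268 in wildtype liver and did not overlap, while the normalized ones did. Mrpl22 and Mrpl23, which line the exit of the peptide tunnel, had 0.16 and -0.09, and Mrpl4 had 0.12. The other 8, Mrpl1, Mrpl17, Mrpl18, Mrpl20, Mrpl27, Mrpl30, Mrpl47 and Mrpl50, lay between -0.08 and 0.12.

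**Figure D2:**
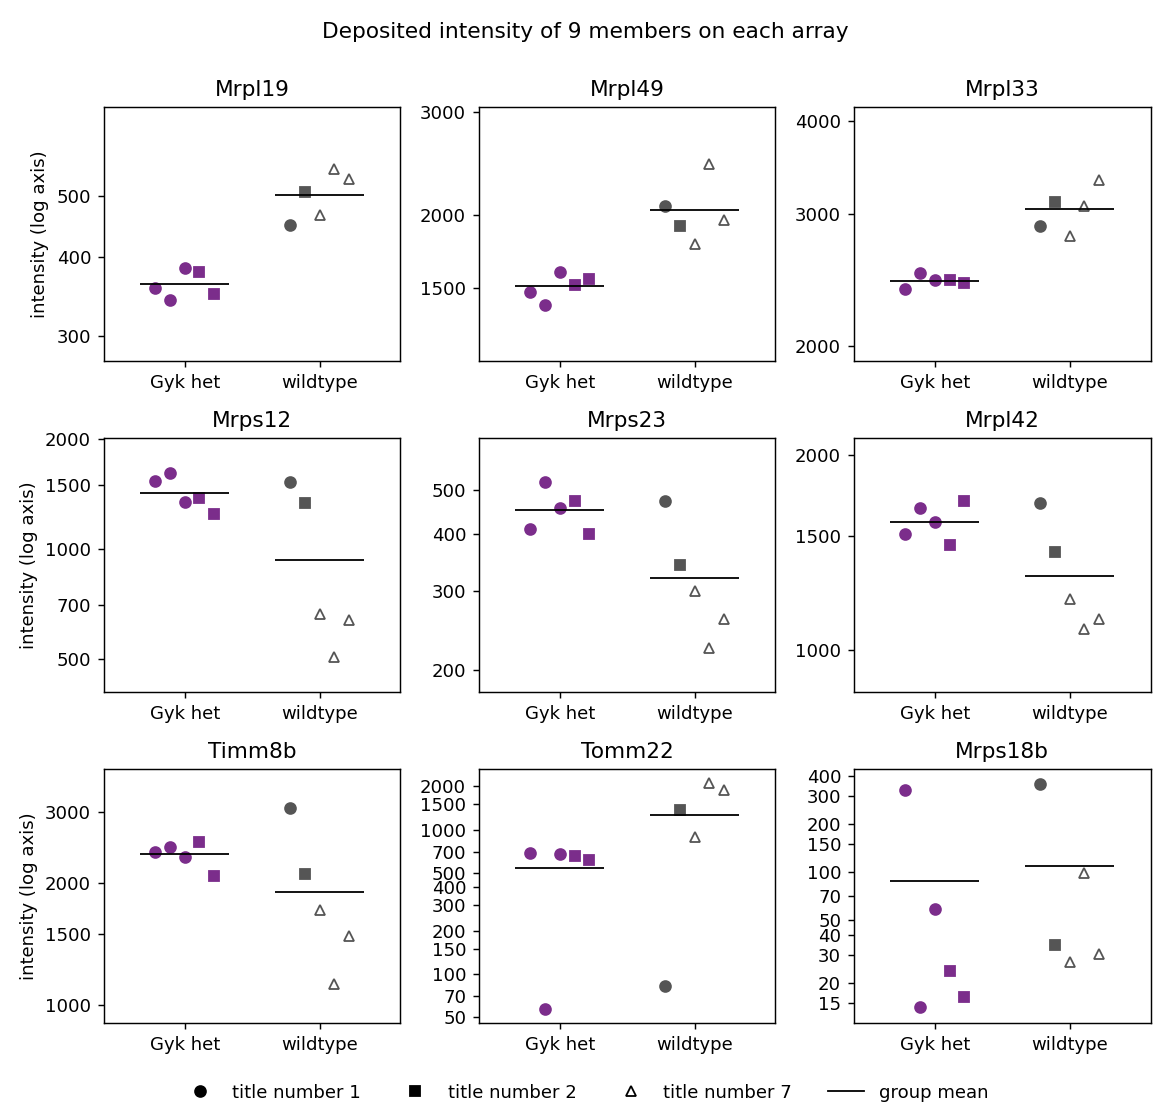
Deposited intensity (y axis, log scale) of 9 genes on each of 10 arrays, heterozygous left of wildtype, with the symbol giving the number in the sample title and the bar the group mean. Mrpl19, Mrpl49 and Mrpl33 separate the groups, Mrps12 is low in the 3 wildtype mice of title number 7 alone, and Tomm22 has 1 very low value in each group.

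In the small subunit the highest log2 changes were those of Mrps12 and Mrps23. Mrps12 sits at the decoding centre, where the codon is read. It had intensities of 1535, 1611, 1343, 1383 and 1246 in heterozygous replicates 1 to 5, against 1522, 1340, 664, 505.5 and 639.5 in wildtype replicates 1 to 5. The 3 wildtype mice of title number 7 lay far below the 7 other mice, and wildtype replicates 1 and 2 lay inside the heterozygous range. The log2 change was 0.70 (SE 0.24, limma adjusted p 0.339), and 0.05 within the title numbers 1 and 2.

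Mrps23, a protein found in mitochondrial and not in bacterial ribosomes, had 409.7, 521.9, 457.5, 474.1 and 400.5 in heterozygous liver, against 473.4, 341.1, 299.8, 223.6 and 259.4 in wildtype liver. Wildtype replicate 1 lay in the heterozygous range and the other 4 below it. The log2 change was 0.41 (SE 0.13, limma adjusted p 0.331), and 0.16 within the title numbers 1 and 2. Mrps16 and Mrps10, both of bacterial descent, had log2 changes of 0.23 (SE 0.12) and 0.20 (SE 0.11), and of -0.03 and -0.003 within the title numbers 1 and 2. For both, the lowest 3 of all 10 mice after normalization were the wildtype mice of title number 7.

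Mrps5, another protein of bacterial descent, had the lowest log2 change of the small subunit. It had 1899, 1821, 2230, 2286 and 2501 in heterozygous liver, against 2462, 2722, 2440.4, 2699 and 2498 in wildtype liver, and the groups overlapped through heterozygous replicate 5. Its log2 change was -0.22 (SE 0.09, limma adjusted p 0.384). Mrps6 had -0.13 (SE 0.09). Another 7 genes, Mrps11, Mrps15, Mrps17, Mrps18c, Mrps21, Mrps24 and Mrps33, lay between -0.04 and 0.11.

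Mrps18b and Mrps26 were dim and uneven. Mrps18b had 325.5, 14.1, 58.7, 23.7 and 16.3 in heterozygous liver, against 352.4, 34.6, 27, 98.1 and 30.3 in wildtype liver. The 2 high values are those of heterozygous replicate 1 and wildtype replicate 1, the arrays that stood apart. Mrps26 had 162.6 and 149.8 on these 2 arrays and 22.4 to 49 on the other heterozygous and 9.7 to 90 on the other wildtype arrays. The thresholds of detection ran from 21.9 to 41.1, so most of their other values lay at or near the noise.

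Among the import genes 1 had an unadjusted p under 0.05, Timm9. Timm9 and Timm8b are small chaperones of the space between the membranes, which escort water-repelling proteins from the TOM pore to the inner membrane. Timm9 had intensities of 2485, 2531, 2713, 2516 and 2118 in heterozygous replicates 1 to 5, against 3155, 2537, 3248, 3723 and 2859.9 in wildtype replicates 1 to 5. Wildtype replicate 2 lay in the heterozygous range. The log2 change was -0.28 (SE 0.12, limma adjusted p 0.386), and -0.11 within the title numbers 1 and 2.

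Timm8b had 2386, 2459, 2321, 2532 and 2088 in heterozygous liver, against 3060.2, 2107, 1713, 1130.1 and 1481 in wildtype liver. As with Mrps12, the 3 wildtype mice of title number 7 were the lowest of all 10. The log2 change was 0.41 (SE 0.20, limma adjusted p 0.443), and -0.02 within the title numbers 1 and 2.

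Tomm22, the receptor that organises the TOM complex, had 694.2, 57.1, 678.3, 662.5 and 616.9 in heterozygous liver, against 82.2, 1375, 888.9, 2117 and 1883 in wildtype liver. Heterozygous replicate 2 and wildtype replicate 1, both of title number 1, lay far below the other 8 mice. With them in, the log2 change was -0.85 (SE 0.70, limma adjusted p 0.671) with a 95% confidence interval of -2.40 to 0.70. It was -1.51 without wildtype replicate 1, -0.40 without heterozygous replicate 2 and 0.21 within the title numbers 1 and 2.

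The pore protein Tomm40 had a log2 change of -0.13 (SE 0.10), and -0.03 within the title numbers 1 and 2. The receptor Tomm70a had 0.14 (SE 0.10), and 0.27 within the title numbers 1 and 2. Timm21, a subunit of the inner membrane translocase for presequence proteins, had 0.15 (SE 0.10). The small TOM subunits Tomm5, Tomm6 and Tomm7 had 0.13, 0.00 and 0.09, the receptor Tomm20 0.08 and Timm10b, of the carrier translocase, -0.12. Tomm20 and Tomm70a were dim, with means of 36.1 and 61.2 in heterozygous and 33.6 and 50.6 in wildtype liver. The 0.27 of Tomm70a rests on wildtype values of 71.8 in replicate 1 and 18.2 in replicate 2. The value of 18.2 lay under the detection threshold of its array, 31.1.

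Across the 3 classes the members varied by mouse in patterns that only partly followed the genotype, as the heat map shows. In 12 of the 44 genes, or 27.3%, the 3 wildtype mice of title number 7 lay fully to one side of the other 7 mice, against 14.3% of all kept probes. They were lowest for Mrpl22, Mrpl30, Mrpl42, Mrps10, Mrps12, Mrps16, Mrps23, Timm8b, Tomm5 and Tomm7, and highest for Mrpl12 and Mrpl51. In 10 of the 44 genes, or 22.7%, heterozygous replicate 1 and wildtype replicate 1 lay together above or below the other 8, against 26.0% of all kept probes. The 5 heterozygous mice did not overlap the wildtype mice of title number 7 for 17 of the 44 genes (38.6%), against 20.9% of all kept probes. They did not overlap wildtype replicates 1 and 2 for 3 genes (6.82%), against 8.2%, and these were Mrpl19, Mrpl33 and Mrpl49, for which this follows from the lack of overlap with all wildtype mice. Between the wildtype mice of title number 7 and those of title numbers 1 and 2, the number without overlap was also 17 (38.6%), against 31.3%. The title number 7 occurs in wildtype mice alone, so in those mice it cannot be told apart from the genotype.

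**Figure D3:**
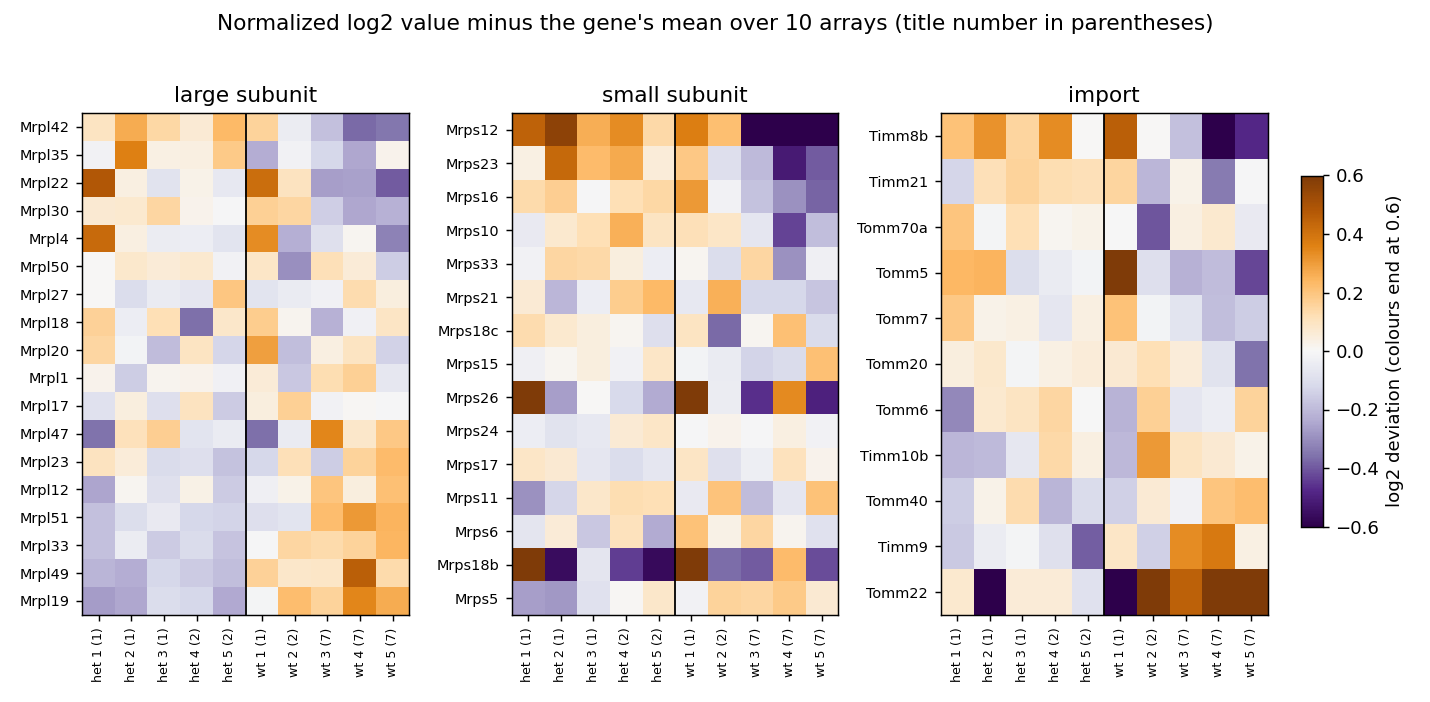
Normalized log2 value of each kept gene minus its mean over the 10 arrays (colour), with genes as rows in 3 panels by class, and arrays as columns, heterozygous left of the black line and wildtype right of it. The 3 rightmost columns, wildtype mice of title number 7, are low for Mrps12, Mrps23 and Timm8b, and the bottom rows of the large subunit are low in all 5 heterozygous columns.

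Seen mouse by mouse, the median of a class moved little. For each mouse the median was taken over the members of their deviation from the mean of all 10 arrays, on the normalized log2 scale. In the large subunit it lay between -0.07 and 0.03 in heterozygous mice and between -0.00 and 0.07 in wildtype mice. In the small subunit it lay between 0.00 and 0.08 in heterozygous mice, and in wildtype mice at 0.10 in replicate 1, -0.02 in replicate 2 and -0.13, -0.07 and -0.11 in replicates 3, 4 and 5. In import it lay between 0.00 and 0.06 in heterozygous and between -0.04 and 0.07 in wildtype mice. The heterozygous and wildtype mice overlapped in each class. The median SD of a member over the mice of a group, on the log2 scale, was 0.11, 0.14 and 0.14 for the large subunit, the small subunit and import in heterozygous liver, and 0.16, 0.18 and 0.19 in wildtype liver. Over all kept probes it was 0.15 in heterozygous and 0.20 in wildtype liver.

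**Figure D4:**
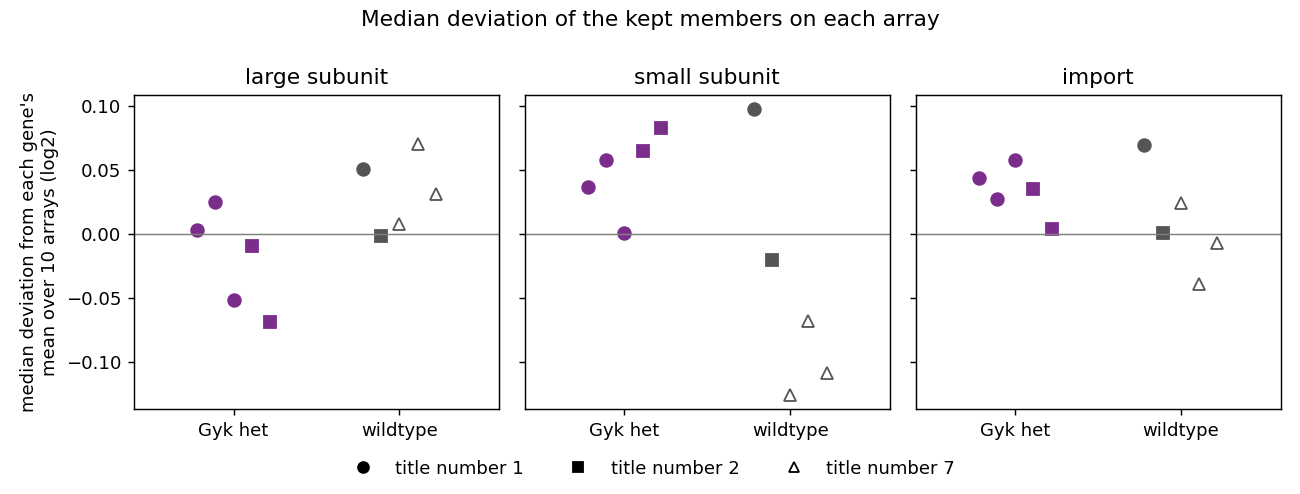
Median deviation of the members of each class from their means over 10 arrays (y axis, log2), with 1 point per mouse, heterozygous left of wildtype, and the symbol giving the title number. The small subunit points of title number 7 lie between -0.13 and -0.07, under all others.

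Some genes were represented by more than 1 probe or by none that could be detected. Mrpl32, Timm23 and Timm29 were detected on 0 of 10 arrays and Mrps36 on 1, so that the channel protein Timm23 and the others gave no comparison. Of 5 genes with several probes only Mrpl1 had 2 that were kept, with log2 changes of -0.05 and 0.04. The dimmer probe of Mrpl19 was detected on 0 arrays and gives no second reading of its lower level. The dimmer probes of Mrpl51 and Timm21 were detected on 3 or fewer arrays, and that of Mrps10 on 0. Copies of these genes elsewhere in the genome that resemble the probe were not told apart.

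The genes that work with the ribosome and the import machinery, listed with earlier results of these data known, gave 0 called genes over all 10 mice in limma's test. Of 11 kept factors of mitochondrial translation, 4 were below and 7 above 0, and 3 had an unadjusted p under 0.05, where 53.5% of all kept probes were below 0 and 11.9% had such a p. Mtfmt, which formylates the initiator tRNA, had intensities of 55.1 ± 10.9 in heterozygous and 34.1 ± 11.9 in wildtype liver (SD, n = 5 each) and a log2 change of 0.25. The cysteine tRNA ligase Cars2 had 0.30 and the factor Gfm2, which recycles ribosomes, -0.22. With the title number as a block these were 0.33 for Mtfmt, 0.28 for Cars2 and -0.09 for Gfm2.

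Of 5 kept genes of ribosome assembly and mitochondrial RNA handling, 3 were below and 2 above 0, and 3 had an unadjusted p under 0.05. Over all kept probes 53.5% were below 0 and 11.9% had such a p. The RNA-binding protein Slirp had 0.27, the ribosome assembly factor Mterf4 -0.25, and the GTPases Mtg2 and Mtg1 -0.21 and 0.11. With the block Slirp had 0.12, Mterf4 -0.04, Mtg2 -0.19 and Mtg1 0.003. Dap3, a small subunit protein under another kind of symbol, had 0.02. Of 9 kept genes of protein sorting and folding inside the organelle, 5 were below and 4 above 0. An unadjusted p under 0.05 was reached by 2 of them, against 11.9% of all kept probes. The chaperonin genes Hspd1 and Hspe1 had 0.40 and 0.42, the processing peptidase gene Pmpca -0.18 and the intermediate peptidase gene Mipep -0.11. With the block Hspd1 had 0.17 and Hspe1 0.21. Without wildtype replicate 1 both passed limma's test, Hspd1 at 0.50 (adjusted p 0.0246) and Hspe1 at 0.57 (adjusted p 0.0312). In that fit 4.31% of all kept probes passed, 3.19% of them all being higher in heterozygous liver. Most wildtype mice left there have title number 7, so the genotype and the title number cannot be told apart. Over all 10 mice the limma adjusted p of the genes in these lists lay between 0.331 and 0.989.

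Genes of mitochondrial metabolism and biogenesis served to set the ribosome beside the rest of the organelle. Of 10 kept genes of the citrate cycle and the outer membrane channels, 7 were below and 3 above 0, and 0 had an unadjusted p under 0.05. Over all kept probes 53.5% were below 0 and 11.9% had such a p. The citrate cycle enzyme Dlst had -0.16, the succinate dehydrogenase subunit Sdhb 0.12 and the channel Vdac1 -0.05. Of 6 genes of mitochondrial DNA expression and biogenesis with a named probe 2 were kept, the coactivator Ppargc1b at -0.09 and Gabpb1, a subunit of the factor GABP, at -0.04. With the block Ppargc1b had 0.21, on the other side of 0.

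Markers of other liver cells were set beside these values. The Kupffer cell markers C1qa, C1qb, Cd68 and Csf1r were above 0 for 4 of 4, with a median log2 change of 0.27 and summed intensities of 1223 to 2452 in heterozygous and 965.5 to 2667 in wildtype liver. Of the red cell markers, Hba-a1 and Hbb-b1 were below 0 for 2 of 2, with sums of 7172 to 12740.0 in heterozygous and 7893 to 31945 in wildtype liver. The endothelial marker Pecam1 ran from 32.8 to 173 in heterozygous and from 29 to 128 in wildtype liver, the lymphocyte markers Cd3e and Ighm from 386 to 1112 and from 361 to 959.5 in sum, and the stellate markers Col1a1, Dcn and Lrat from 8275 to 9634 and from 8695 to 13423. The part of these cells in the values of the ribosome and import genes was not tested.

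The calls depended on wildtype replicate 1. Without it, 6 of the 44 genes, or 13.6%, had a limma adjusted p under 0.05, where 4.31% of all kept probes did, 1.11% lower and 3.19% higher. In that comparison of 5 against 4 mice Mrpl19 (-0.45, adjusted p 0.0246), Mrpl33 (-0.30, adjusted p 0.0375) and Mrpl49 (-0.37, adjusted p 0.0470) fell in limma's test. Mrpl42 (0.39, adjusted p 0.0402), Mrps12 (0.88, adjusted p 0.0457) and Mrps23 (0.51, adjusted p 0.0396) rose in the same test. With array weights the same 6 genes passed, against 4.0% of all kept probes (0.781% lower and 3.22% higher), and without both arrays that stood apart Mrpl19 and Mrps23 passed, against 2.16% (0.332% lower and 1.83% higher). Without wildtype replicate 1, 3 of the 4 wildtype mice have title number 7, so the genotype and the title number cannot be told apart in these calls. Within the title numbers 1 and 2, 0 of the 44 genes passed and 2 had an unadjusted p under 0.05, against 3.44% of all kept probes. With the title number as a block 0 passed and 4 had such a p, against 4.95%.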

How the data were processed

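The deposited values are linear, background-subtracted bead intensities of 24048 probes, from BeadStudio 1.5.1.3 per the submitters' processing notes. Whether the authors scaled the arrays to each other is not given in the sources used here. A second table of unnormalized array output, with 80 columns, was not used, because no label ties its columns to samples. The identifiers carry a number read here as a gene identifier, which matched a gene of the RefSeq table (GRCm38.p6) for 93.3% of 9523 candidates, against 43.9% after shifting the number by 1 to 10, so gene names are inferred. The genes, gene lists and markers were chosen with earlier results of these data known.

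A probe counted as detected on an array above 1.64 times the noise, which was estimated from the values below 0, and was kept if detected on at least 5 arrays. A constant (95.2, which brings the lowest value to 16) was added to each intensity, log2 taken and the arrays quantile normalized. The groups were compared with limma 3.58.1 (R 4.3.3), moderated over all 10238 kept probes with Benjamini-Hochberg adjustment and a threshold of 0.05. The code of the fit was run on simulated data with independent noise for each probe. That simulation held no differences shared by whole arrays, so it does not show how the fit behaves with those seen here. The number of arrays limits the precision, and counts per probe are unknown.

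Genes are named with their values by rule: in each class the 6 with the smallest p, those whose groups do not overlap and the largest log2 change each way, and up to 4 genes per related list. The other members are named to account for all of them; Mrps18b and Mrps26, and the splits by title number and by the arrays that stood apart, were chosen after their values were seen. The 10 mice are separate samples. The alternatives tried were other backgrounds, normalizations, filters, variance models, probe choices and array weights, the title number as a block, title numbers 1 and 2 alone, and leaving out replicates.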

Additional observations from a re-analysis of the deposited data

Results flagged for a closer look

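In 11 of the 90 groups of 5 mice examined, the highest or lowest intensity stood apart from the other 4 by more than Dixon's critical value, where chance flags about 1 in 20 groups. Of these, 5 lay on the array of heterozygous replicate 1, which stood apart with wildtype replicate 1 over all probes. They were the high values of Mrpl22 (1998), Mrpl4 (550.5), Mrps18b (325.5) and Mrps26 (162.6) and the low value of Timm21 (718.2). Heterozygous replicate 2 was low for Tomm22 (57.1) and for Mrpl1 (860.2), and heterozygous replicate 3 was low for Mrps16 (880.6). In wildtype liver, replicate 4 was high for Mrpl49 (2447), and replicate 2 was high for Mrps21 (4365) and low for Tomm70a (18.2). The log2 change of Mrpl49 was -0.30 without wildtype replicate 4, and that of Tomm22 was -0.40 without heterozygous replicate 2. The cause of these values was not tested.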

How the results depend on the processing

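Of all alternatives, 3 gave called probes: 441 without wildtype replicate 1, 410 with array weights and 221 without both arrays that stood apart, with 6, 6 and 2 called members. Leaving out 1 mouse at a time gave 0 to 441 called probes, 0 to 6 called members and a Gyk log2 change of -0.74 to -0.50. It gave class medians of -0.06 to -0.02 in the large subunit, 0.01 to 0.10 in the small subunit and 0.032 to 0.10 in import, and 10 to 12, 5 to 7 and 4 to 5 members below 0. The import median was 0.039 with no further normalization, 0.0030 over probes detected on all 10 arrays, -0.042 in the fit with the block of title numbers and -0.026 within the title numbers 1 and 2. The small subunit median was -0.026 with the block and -0.018 within the title numbers 1 and 2. Both fits set the heterozygous mice against wildtype replicates 1 and 2, so they are nearly the same comparison. The large subunit median was -0.080 with no further normalization. In import 7 members were below 0 with the block and 7 within the title numbers 1 and 2, where 10 small subunit members were. Signs reversed with the block for Mrps16 (-0.037), Timm8b (-0.042) and Tomm22 (0.35), and within the title numbers 1 and 2 for Mrps16 (-0.030), Mrps10 (-0.0027), Timm8b (-0.024) and Tomm22 (0.21); the cause was not tested. With the title number as a block 0 probes were called and 507 had an unadjusted p under 0.05 in limma. No paired analysis was possible because the replicate numbers only name the mice and pair none of them. For the named genes 392 values under an alternative kept their direction and side of the threshold, 14 newly passed it and 7 reversed. The intensity of a probe limits what it shows: Mrps18b was detected on 6 arrays, Mrps26 on 7, Tomm20 on 8 and Tomm70a on 9, and their other values lay in the noise.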
